A study of Rattus norvegicus with 18 samples.

Results

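The genes described here were listed together as markers of kidney tubule injury and repair, and were measured in rat kidney cells kept at different osmolalities. The list was drawn up by name, with earlier results of these data known, and holds 9 genes: Havcr1, Lcn2, Spp1, Clu, Vcam1, Sox9, Cd44, Olfm4 and Defb1. Counts of called markers beside the share of all features are therefore a description and not a test of the list. A feature of the array, the probe set for a transcript, was used where the platform's probe gene table gives it a single symbol that is on the list. This found 8 of the 9 genes, each with 1 feature, among 15295 features with a single symbol and 28328 features in all. Sox9 is not named in that table and was not analysed here.

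The cells were primary cultures of collecting duct cells from the renal inner medulla of the rat, and total RNA was read on 18 Affymetrix whole-transcript arrays. Cells grown at 300 mosmol/kg are called the 300 culture and cells grown at 600 mosmol/kg the 600 culture. The 600 challenge moved cells of the 300 culture to 600 mosmol/kg for 24 h, and the 900 challenge moved cells of the 600 culture to 900 mosmol/kg for 24 h. Each challenge was run without and with 5 µM Cyclosporin A (a blocker of the calcineurin phosphatase), which gives 6 groups of 3 arrays. The sources used here state neither the animals' strain and age nor the osmolyte added, and no group had a mock step at unchanged osmolality or the drug without a challenge. Since no label tells whether a group's 3 arrays stem from different animals or cultures, the p-values reflect array-to-array spread only, possibly technical spread.

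After injury, surviving tubule cells lose specialised features, switch on a repair programme and put a characteristic set of proteins on their surface or into the urine. Havcr1 encodes kidney injury molecule 1, a receptor for phosphatidylserine on dying cells that is known above all from the proximal tubule. Lcn2 encodes lipocalin 2, an iron-chelator-binding protein of innate defence that distal nephron and collecting duct release, Olfm4 encodes the secreted glycoprotein olfactomedin 4, and Defb1 encodes the antimicrobial peptide beta-defensin 1. Cd44 is a receptor for hyaluronan and for osteopontin, the secreted phosphoprotein encoded by Spp1. Clu encodes clusterin, an extracellular chaperone, and Vcam1 encodes an adhesion molecule that binds integrins on leukocytes. Inner medullary cells are exposed to high osmolality in the living kidney.

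Levels are the deposited log-scale values, of a base that the sources used here do not state. On a base of 2, a difference of 1 log unit means 2-fold, and on natural logarithms it means 2.72-fold. Array medians lay between 3.56 and 3.65 and array lower quartiles between 2.48 and 2.70, and a level under its array's lower quartile is not shown to stand above background. Averaged over all arrays, 0 of the measured markers lay under the lower quartile. Shares given for all features include features under it and 12711 without a symbol, so that set is unlike the markers. The median SD of a feature within a group was 0.108 to 0.123 log units. Levels of different genes come from different probes and are not set against each other.

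The labelled cell type was checked against marker genes. In the 600 culture 10 of 12 principal cell markers lay above the lower quartile, with the vasopressin-regulated water channel gene Aqp2 at 6.50. In the 300 culture 6 of the 12 lay under the lower quartile, and Aqp2, at 1.61 there and 2.28 in the 600 challenge, was among those under it in both groups. Leukocyte markers (12 measured of 13) had a mean level of 5.28 to 5.40 over the 3 arrays of the 300 culture, 4.13 to 4.32 in the 600 challenge, 4.41 to 4.52 for the 600 culture and 3.38 to 3.43 for the 900 challenge. Fibroblast and interstitial markers (13 of 13) ran at 5.89 to 5.95, 4.98 to 5.06, 5.54 to 5.56 and 4.73 to 4.87 in the same order. No marker of these lists was at 0 in any group mean. Of 10 proximal tubule markers, 9 were under the lower quartile in the 300 culture and the 600 challenge, 8 in the 600 culture and 7 in the 900 challenge. The proximal tubule marker above it in every group was the water channel gene Aqp1. Its level was 4.90 in the 300 culture, 6.09 in the 600 challenge, 7.36 in the 600 culture and 8.15 in the 900 challenge. In bulk RNA, fewer cells of a type and less RNA per cell cannot be told apart.

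**Figure D1:**
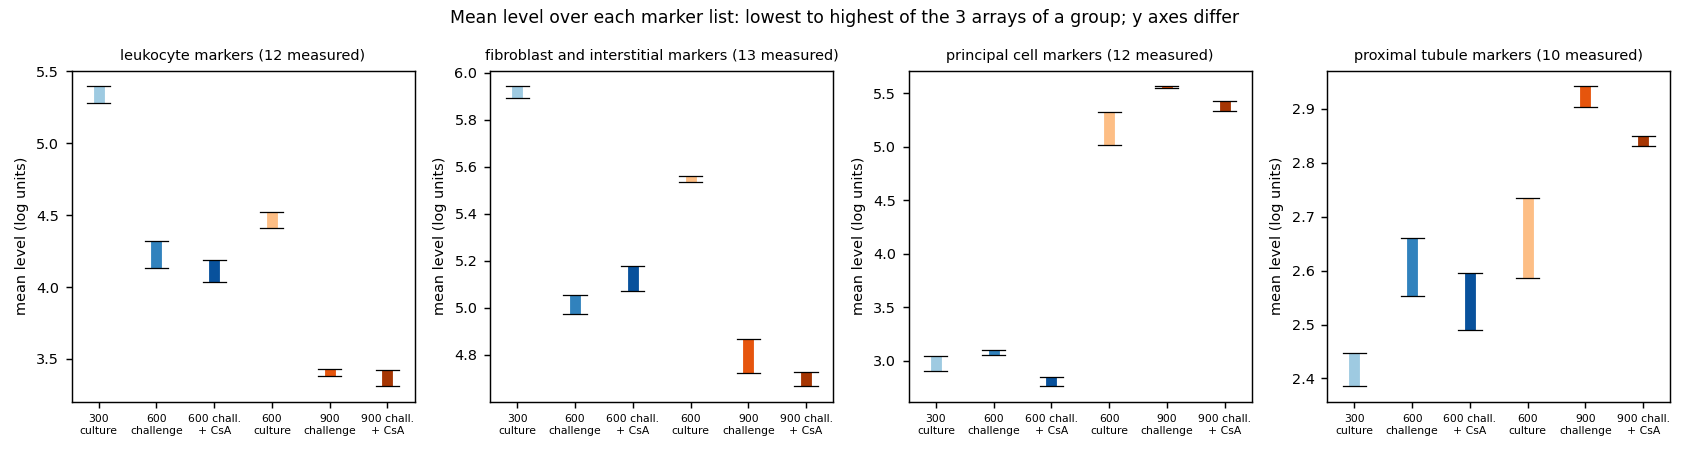
Mean level in log units over 4 marker lists in the 6 groups, drawn as the range from the lowest to the highest of 3 arrays. Leukocyte and fibroblast lists were highest in the 300 culture (5.28 to 5.40 and 5.89 to 5.95), and principal cell markers were higher in the 600 culture (5.01 to 5.32) than in the 300 culture (2.90 to 3.04).

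The markers did not share a single pattern. Olfm4 spanned the widest range of group means (5.20 log units between the 600 culture and the 600 challenge), followed by Defb1 (2.21), Havcr1 (1.58), Cd44 (1.26), Lcn2 (1.07), Vcam1 (0.81), Spp1 (0.62) and Clu (0.48). Over all features the median span was 0.37, and 8.21% spanned more than 1 log unit. Lcn2 and Olfm4 separated the cells by the osmolality they had been grown at, Defb1 was high in a single group, Havcr1 was highest after the 600 challenge, and Cd44 was highest in the 300 culture.

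**Figure D2:**
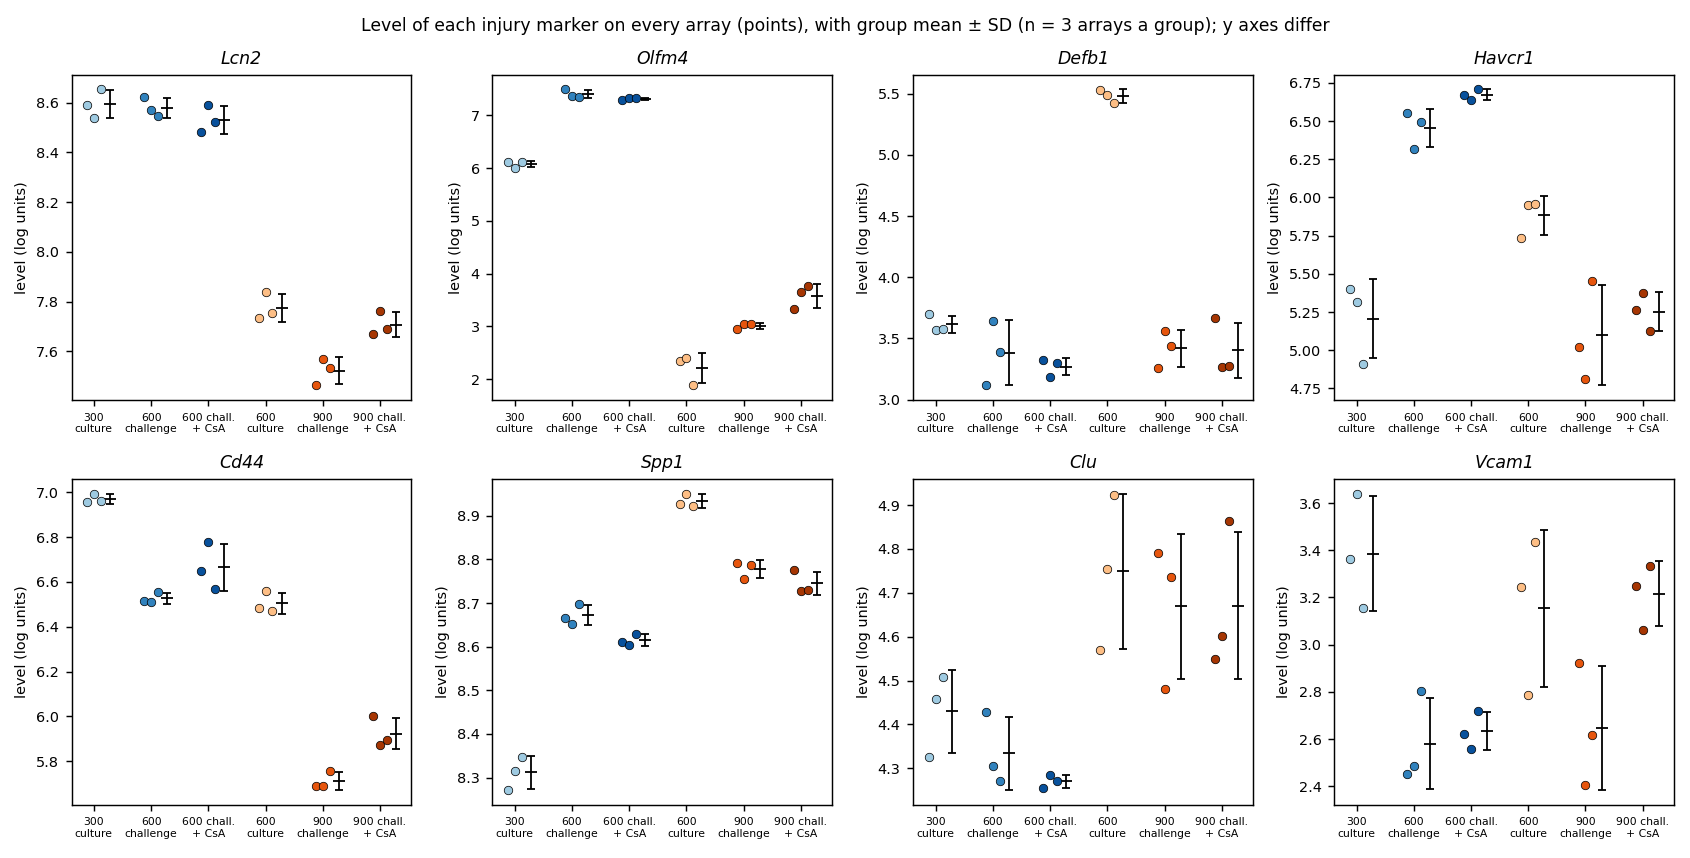
Level in log units of the 8 measured injury markers on each of 18 arrays (points, coloured by group), with the group mean ± SD (n = 3) beside them and a separate axis for each gene. Lcn2 lies between 8.48 and 8.65 in the 3 groups grown at 300 mosmol/kg and between 7.46 and 7.84 in the 3 grown at 600 mosmol/kg.

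Among the secreted defence proteins, Lcn2 read 8.59, 8.54 and 8.65 for replicates 1 to 3 of the 300 culture, 8.62, 8.57 and 8.55 for the 600 challenge and 8.48, 8.59 and 8.52 in the 600 challenge with Cyclosporin A. It read 7.73, 7.84 and 7.75 for the 600 culture, 7.46, 7.57 and 7.53 for the 900 challenge and 7.67, 7.76 and 7.69 in the 900 challenge with the drug. The 9 arrays of cells grown at 300 mosmol/kg thus all lay above the 9 arrays of cells grown at 600 mosmol/kg. From the lowest, the order of means was the 900 challenge (7.52 ± 0.055, SD, n = 3), the 900 challenge with Cyclosporin A (7.71), the 600 culture (7.78), the 600 challenge with the drug (8.53), the 600 challenge (8.58) and the 300 culture (8.60 ± 0.058). The drug-treated 900 challenge overlapped its neighbour above, the 600 culture, and the top 3 groups overlapped in a chain.

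Olfm4 followed the same division with a far larger span. Its levels were 6.11, 6.004 and 6.11 for the 300 culture, 7.49, 7.37 and 7.35 for the 600 challenge and 7.29, 7.33 and 7.33 in the 600 challenge with Cyclosporin A. In cells grown at 600 mosmol/kg they were 2.35, 2.40 and 1.88 without a challenge, 2.95, 3.04 and 3.04 after the 900 challenge and 3.32, 3.65 and 3.76 after the 900 challenge with the drug. In the order of means, no pair of neighbouring groups overlapped. All 3 arrays of the 600 culture were under their lower quartile, so differences that start there are less sure in size.

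Defb1 behaved unlike the other defence genes, being high in the 600 culture and low elsewhere. It read 5.53, 5.49 and 5.42 for the 600 culture against 3.70, 3.57 and 3.58 for the 300 culture. After the challenges it read 3.12, 3.64 and 3.39 (600), 3.32, 3.19 and 3.30 (600 with Cyclosporin A), 3.26, 3.56 and 3.44 (900) and 3.67, 3.27 and 3.28 (900 with Cyclosporin A). The 600 culture stood clear of every other group by at least 1.73 log units between single arrays, while the 4 challenge groups overlapped in a chain.

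The sequences just upstream of Lcn2 and Olfm4 are shown because both genes separated the cells by growth osmolality, and that of Vcam1 because it holds the same kind of motif. The promoter table from RefSeq (build GRCr8) matched 6 of the 9 listed genes by symbol, all but Clu, Defb1 and Sox9. The 250 bases before the gene start were searched on both strands for GGGRNNYYCC, a binding motif of NF-kB, the transcription factor of inflammatory signalling. In this motif R is A or G, Y is C or T and N is any base, and other forms of NF-kB site were not searched. The windows were also searched for TGGAAA, the core of the element read by the tonicity factor NFAT5. The NF-kB motif in this form occurred once in each of Lcn2, Olfm4 and Vcam1 and not in Havcr1, Spp1 or Cd44, and 6.33% of 33469 promoter windows of this length hold it. TGGAAA was in none of the 6 windows and is in 19.7% of all windows. Capitals mark the NF-kB match, whose first base lies 242, 47 and 93 bases before the start of Lcn2 (chr3:36081781-36082030 (minus strand)), Olfm4 (chr15:61815981-61816230 (plus strand)) and Vcam1 (chr2:206742784-206743033 (minus strand)). The NF-kB motif has 10 letters, the Lcn2 match reads on the strand opposite to the gene, those of Olfm4 and Vcam1 read on both strands, and none overlaps a TGGAAA. A match of letters is a description and not evidence of binding.
Lcn2: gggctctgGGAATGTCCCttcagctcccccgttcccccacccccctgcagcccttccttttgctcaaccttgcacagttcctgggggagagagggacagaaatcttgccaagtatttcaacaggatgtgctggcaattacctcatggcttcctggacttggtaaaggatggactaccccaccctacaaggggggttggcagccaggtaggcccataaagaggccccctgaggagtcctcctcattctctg
Olfm4: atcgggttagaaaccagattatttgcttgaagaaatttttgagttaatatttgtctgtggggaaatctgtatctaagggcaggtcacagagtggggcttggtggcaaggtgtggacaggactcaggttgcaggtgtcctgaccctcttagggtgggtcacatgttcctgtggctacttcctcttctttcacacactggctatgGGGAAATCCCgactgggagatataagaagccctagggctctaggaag
Vcam1: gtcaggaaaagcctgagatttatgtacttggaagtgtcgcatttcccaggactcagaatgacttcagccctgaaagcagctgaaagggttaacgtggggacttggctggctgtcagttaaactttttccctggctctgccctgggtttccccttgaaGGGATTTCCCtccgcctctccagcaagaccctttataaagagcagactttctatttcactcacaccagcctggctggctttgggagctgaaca

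Among the receptors, Havcr1 read 5.40, 5.31 and 4.91 for the 300 culture, 6.55, 6.32 and 6.50 for the 600 challenge and 6.67, 6.64 and 6.71 in the 600 challenge with Cyclosporin A. It read 5.74, 5.95 and 5.96 for the 600 culture, 5.02, 4.81 and 5.46 for the 900 challenge and 5.26, 5.37 and 5.12 in the 900 challenge with the drug. Both 600 challenge groups lay above every other array, the 600 culture came next, and the 900 challenge, the 300 culture and the drug-treated 900 challenge overlapped at the bottom.

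Cd44 read 6.96, 6.99 and 6.96 for the 300 culture, 6.51, 6.51 and 6.56 for the 600 challenge and 6.65, 6.78 and 6.57 in the 600 challenge with Cyclosporin A. It read 6.49, 6.56 and 6.47 for the 600 culture, 5.69, 5.69 and 5.76 for the 900 challenge and 6.002, 5.87 and 5.90 in the 900 challenge with the drug. The 300 culture lay highest and the 900 challenge lowest, the 600 culture and the 600 challenge overlapped, and every other pair of neighbours was apart.

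Spp1, the gene of its ligand osteopontin, was low where Cd44 was highest. The levels were 8.27, 8.32 and 8.35 for the 300 culture, 8.67, 8.65 and 8.70 for the 600 challenge and 8.61, 8.60 and 8.63 in the 600 challenge with Cyclosporin A. They were 8.93, 8.95 and 8.92 for the 600 culture, 8.79, 8.76 and 8.79 for the 900 challenge and 8.78, 8.73 and 8.73 in the 900 challenge with the drug. Spp1 was lowest in the 300 culture and highest in the 600 culture, and the 900 challenge groups with and without the drug were the only neighbours that overlapped.

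Clu, the chaperone gene, had the smallest span. It read 4.33, 4.46 and 4.51 for the 300 culture, 4.43, 4.31 and 4.27 for the 600 challenge and 4.26, 4.28 and 4.27 in the 600 challenge with Cyclosporin A, then 4.57, 4.76 and 4.92 for the 600 culture. It read 4.79, 4.48 and 4.74 for the 900 challenge and 4.55, 4.60 and 4.86 in the drug-treated 900 challenge. All neighbouring groups overlapped, with cells grown at 600 mosmol/kg at the upper end.

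Vcam1 was faint and variable, with levels of 3.36, 3.64 and 3.16 for the 300 culture, 2.45, 2.49 and 2.80 for the 600 challenge and 2.62, 2.56 and 2.72 in the 600 challenge with Cyclosporin A. It read 3.24, 2.79 and 3.44 for the 600 culture, 2.92, 2.40 and 2.62 for the 900 challenge and 3.25, 3.06 and 3.33 in the 900 challenge with the drug. It was highest in the 300 culture, and all neighbouring groups overlapped. Of the 3 arrays in each group, 2 were under the lower quartile in each 600 challenge group and 1 in the 900 challenge, so its falls end at levels not shown to stand above background.

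The step from 300 to 600 mosmol/kg raised Havcr1, Olfm4 and Spp1 and lowered Cd44 and Vcam1. Every difference was tested in limma, adjusting by Benjamini-Hochberg across the whole array. The 5 called of 8 stand beside 14.4% of all features called, 6.36% higher and 8.07% lower. Olfm4 rose by 1.33 ± 0.12 log units (SE, adjusted p = 3.38e-06), which is 2.52-fold with base 2 and 3.79-fold with a natural logarithm. Havcr1 rose by 1.25 ± 0.15 (adjusted p = 4.01e-05) and Spp1 by 0.36 ± 0.038 (adjusted p = 1.3e-05). The groups did not overlap for any of these. The difference was -0.44 ± 0.056 for Cd44 (adjusted p = 6.36e-05) and -0.81 ± 0.17 for Vcam1 (adjusted p = 0.00502). Lcn2 (-0.015, 95% interval -0.13 to 0.097), Clu (-0.096, -0.32 to 0.13) and Defb1 (-0.23, -0.50 to 0.037) did not pass the test. Over the 8 markers the median difference was -0.06 and the median size of a difference 0.40, against 0.02 and 0.14 over all features. In the same comparison 9 of 12 leukocyte markers fell (median of the list -1.23) and 10 of 13 fibroblast markers fell (median -0.91). Of 11 endothelial markers 7 fell and 1 rose (median -0.32). Their part in the lower Cd44 and Vcam1 levels was not tested. The Vcam1 call was lost in an ordinary 2-sample test per feature (adjusted p = 0.0824).

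When the 600 challenge included Cyclosporin A, the same 5 markers passed against the 300 culture, where 14.1% of all features did (6.21% higher, 7.85% lower). This comparison shares the 3 arrays of the 300 culture with the one before. Havcr1 was higher by 1.47 ± 0.15 (adjusted p = 8.94e-06), Olfm4 by 1.24 ± 0.12 (adjusted p = 6.75e-06) and Spp1 by 0.30 ± 0.038 (adjusted p = 6.85e-05). Cd44 differed by -0.30 ± 0.056 (adjusted p = 0.00159) and Vcam1 by -0.75 ± 0.17 (adjusted p = 0.00813). The Cd44 call was lost in a fit of these 2 groups alone (adjusted p = 0.0552), where Defb1, at -0.35 ± 0.13 and not called in the fit of all arrays (adjusted p = 0.0894), passed (adjusted p = 0.0328). An ordinary 2-sample test also lost Cd44 (adjusted p = 0.0746) and Vcam1 (adjusted p = 0.0689) and called Defb1 (adjusted p = 0.0479). Leukocyte markers fell in 10 of 12 cases here (median -1.35) and fibroblast markers in 10 of 13 (median -0.80). Of 11 endothelial markers 8 fell and 1 rose (median -0.50). The part of these 3 lists was not tested.

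The step from 600 to 900 mosmol/kg lowered 5 of the 8 markers and raised 1, beside 17.4% of all features called (6.43% higher, 11.0% lower). Defb1 fell most, with a difference of -2.06 ± 0.13 (adjusted p = 5.61e-08), 4.17-fold with base 2 and 7.84-fold with a natural logarithm. Cd44 differed by -0.79 ± 0.056 (adjusted p = 2.12e-07), Havcr1 by -0.78 ± 0.15 (adjusted p = 0.00176) and Lcn2 by -0.25 ± 0.052 (adjusted p = 0.00317). The smallest fall was that of Spp1, -0.16 ± 0.038 (adjusted p = 0.0106). Olfm4 alone rose, by 0.80 ± 0.12 (adjusted p = 0.000321), starting under the lower quartile. Vcam1 (-0.51 ± 0.17, adjusted p = 0.0588) and Clu (-0.08, 95% interval -0.30 to 0.14) did not pass. The median difference of the 8 markers was -0.38, against -0.01 over all features. Leukocyte markers fell in 9 of 12 cases (median -1.13) and fibroblast markers in 11 of 13 (median -0.74), and their part in these falls was not tested. The Spp1 call was lost with each array centred on its median (adjusted p = 0.0586), and those of Spp1 and Lcn2 in a fit of these 2 groups alone (adjusted p = 0.133 and 0.0611). An ordinary 2-sample test lost Havcr1, Olfm4 and Lcn2 (adjusted p = 0.109, 0.0734 and 0.0528). With all arrays, Vcam1 passed under quantile normalization, with only features above the lower quartile and with a variance trend and robust settings (adjusted p = 0.0491, 0.0421 and 0.0485). It also passed without replicate 2 of the 600 culture (-0.69, adjusted p = 0.0122) and without replicate 1 of the 900 challenge (-0.65, adjusted p = 0.0284).

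With Cyclosporin A, 4 markers were lower and 1 higher after the 900 challenge than in the 600 culture, where 17.8% of all features were called (7.27% higher, 10.5% lower). The comparison shares the arrays of the 600 culture with the one before. Defb1 differed by -2.08 ± 0.13 (adjusted p = 3.99e-08), Havcr1 by -0.63 ± 0.15 (adjusted p = 0.00833), Cd44 by -0.58 ± 0.056 (adjusted p = 3.76e-06) and Spp1 by -0.19 ± 0.038 (adjusted p = 0.00276). Olfm4 rose by 1.37 ± 0.12 (adjusted p = 2.08e-06). Lcn2 (-0.067, 95% interval -0.18 to 0.044), Vcam1 (0.061, -0.31 to 0.43) and Clu (-0.078, -0.30 to 0.15) did not pass. Leukocyte markers were lower in 9 of 12 cases (median -1.02) and fibroblast markers in 11 of 13 (median -0.66), and their part here was not tested. The Spp1 call was lost in a fit of these 2 groups alone (adjusted p = 0.0822).

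**Figure D3:**
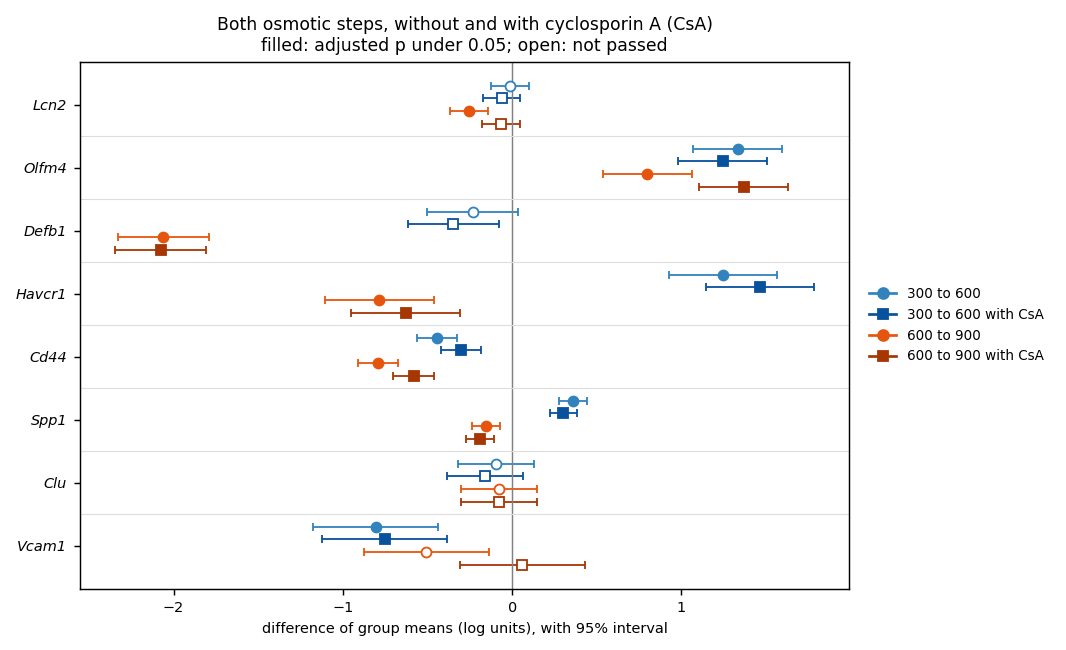
Difference of group means in log units with its 95% interval for the 8 markers, in the step from 300 to 600 mosmol/kg (blue) and from 600 to 900 mosmol/kg (orange), without (circles) and with Cyclosporin A (squares). Havcr1 lies at 1.25 in the first step and -0.78 in the second, while Olfm4 lies above 0 in all 4 comparisons.

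Whether a marker responded differently to the 2 steps was tested directly, on comparisons that share no array. The difference of the steps passed for 4 of 8 markers, beside 7.58% of all features (3.52% above 0 and 4.06% below), and was negative for each of the 4. Havcr1 rose in the first step and fell in the second, a gap of -2.03 ± 0.21 log units (adjusted p = 4.45e-05). Spp1 did the same on a smaller scale (-0.52 ± 0.054, adjusted p = 4.7e-05), though its fall in the second step was not called with each array centred on its median. Defb1 fell in the second step and did not pass in the first (-1.83 ± 0.18, adjusted p = 2.58e-05), and Cd44 fell in both, further in the second (-0.35 ± 0.079, adjusted p = 0.0138). Olfm4 (-0.53, adjusted p = 0.0828), Lcn2 (-0.24, adjusted p = 0.0677), Vcam1 (0.30, adjusted p = 0.56) and Clu (0.016, adjusted p = 0.971) did not pass. Olfm4 passed without replicate 3 of the 600 culture (-0.70, adjusted p = 0.00749) and without replicate 1 of the drug-treated 900 challenge (-0.53, adjusted p = 0.0491), and with all arrays under a variance trend and robust settings (adjusted p = 0.0355). Lcn2 passed with only features above the lower quartile, with a variance trend and robust settings and with array weights (adjusted p = 0.0375, 0.00581 and 0.0486).

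Culture at 600 against 300 mosmol/kg changed 6 of 8 markers, 3 in each direction, beside 17.2% of all features called (8.33% higher, 8.84% lower). Olfm4 was lower in the 600 culture by the widest margin (-3.87 ± 0.12 log units, adjusted p = 1.4e-11), down to levels under the lower quartile, and Lcn2 (-0.82 ± 0.052, adjusted p = 2.88e-08) and Cd44 (-0.46 ± 0.056, adjusted p = 2.31e-05) were lower too. Defb1 was higher by 1.86 ± 0.13 (adjusted p = 5.77e-08), Havcr1 by 0.67 ± 0.15 (adjusted p = 0.00502) and Spp1 by 0.62 ± 0.038 (adjusted p = 2.12e-08). Clu (0.32 ± 0.10, adjusted p = 0.0504) and Vcam1 (-0.23, 95% interval -0.60 to 0.14) did not pass. With all arrays, Clu passed under quantile normalization, the filter on dim features, a variance trend and robust settings, and array weights (adjusted p = 0.0306, 0.0354, 0.0313 and 0.0278). It also passed without replicate 1 of the 600 culture (0.41, adjusted p = 0.0204), and also without replicate 2 of the 900 challenge or replicate 3 of the drug-treated 900 challenge (adjusted p = 0.0338 and 0.0337). The Havcr1 call was lost in an ordinary 2-sample test (adjusted p = 0.0951). In this comparison 9 of 12 principal cell markers rose (median 2.36), 10 of 12 leukocyte markers fell (median -1.14) and 8 of 13 fibroblast markers fell (median -0.29), and their part in the marker differences was not tested.

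At the same osmolality of 600 mosmol/kg, cells moved there for 24 h differed from cells grown there in 7 of 8 markers, 3 higher and 4 lower, beside 16.4% of all features (7.69% higher, 8.74% lower). This comparison shares the 600 culture arrays with the one before. Olfm4 was higher in the challenge by 5.20 ± 0.12 log units (adjusted p = 1.09e-12). No fold is given, since its 3 arrays of the 600 culture were under the lower quartile and not shown to stand above background. Lcn2 (0.80 ± 0.052, adjusted p = 4.25e-08) and Havcr1 (0.57 ± 0.15, adjusted p = 0.0158) were higher as well. Defb1 (-2.10 ± 0.13, adjusted p = 1.97e-08), Spp1 (-0.26 ± 0.038, adjusted p = 0.000184), Clu (-0.41 ± 0.10, adjusted p = 0.0125) and Vcam1 (-0.58 ± 0.17, adjusted p = 0.0337) were lower, with Vcam1 overlapping between the groups. In the same comparison 9 of 12 principal cell markers were lower (median -2.43), as were 9 of 13 fibroblast markers (median -0.67), 8 of 11 endothelial markers (median -0.52) and 4 of 12 leukocyte markers (median -0.16), and their part in the marker differences was not tested. Cd44 differed by 0.021 (95% interval -0.098 to 0.14). The Havcr1 call was lost without replicate 1 of the 600 culture or replicate 1 or 3 of the 600 challenge (adjusted p = 0.0708, 0.0619 and 0.0519). That of Clu was lost without replicate 3 of either group (adjusted p = 0.0659 and 0.0507). That of Vcam1 was lost without replicate 1 or 3 of the 600 culture or replicate 1 or 2 of the challenge (adjusted p = 0.107, 0.151, 0.117 and 0.108). Clu and Vcam1 were lost in a fit of these 2 groups alone (adjusted p = 0.0608 and 0.122), and Havcr1, Clu and Vcam1 in an ordinary 2-sample test (adjusted p = 0.0523, 0.125 and 0.237).

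**Figure D4:**
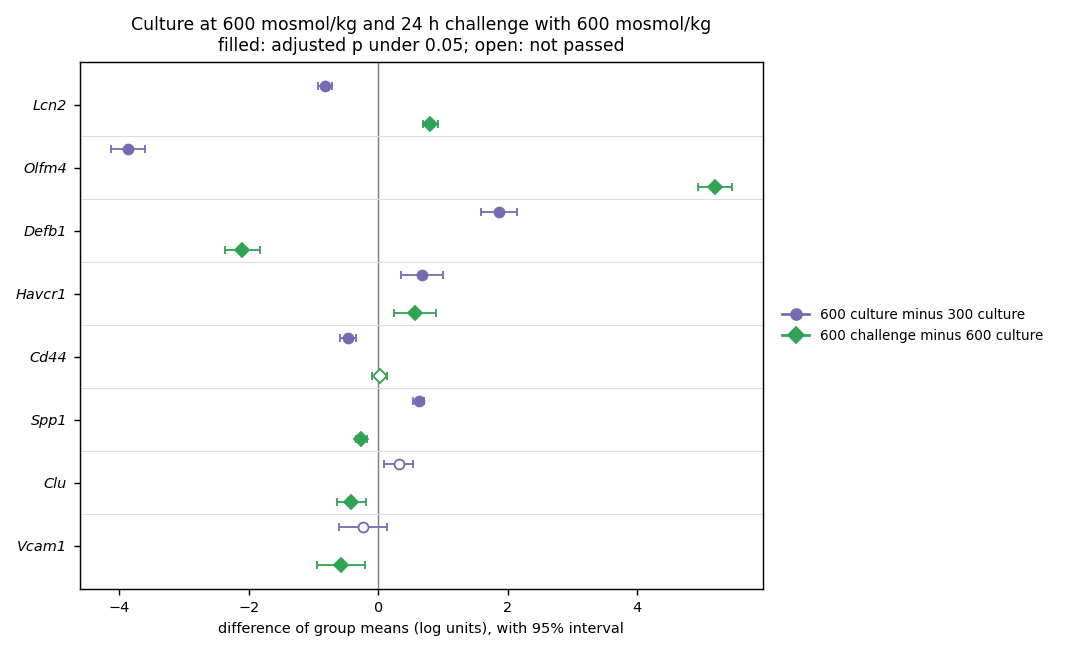
Difference of group means in log units with its 95% interval for the 8 markers, for the 600 culture minus the 300 culture (circles) and the 600 challenge minus the 600 culture (diamonds). Olfm4 lies at -3.87 and 5.20, and Cd44 passed in the first (-0.46) and did not pass in the second (0.021).

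Cyclosporin A against the same challenge without it gave no called marker at either osmolality. In the 600 challenge limma called 0 of 8 after adjustment, beside 0.409% of all features (0.229% higher, 0.180% lower). An unadjusted p under 0.05 was found for 1 of 8 markers, beside 8.49% of all features. That 1 was Cd44, at 0.14 ± 0.056 (adjusted p = 0.484). The groups did not overlap for 4 of 8 markers, Cd44, Havcr1, Olfm4 and Spp1, beside 13.2% of all features. In the 900 challenge limma called 0 of 8 after adjustment, beside 0.505% of all features (0.357% higher, 0.148% lower). There 4 of 8 markers had an unadjusted p under 0.05, beside 10.6% of all features. The same 4 were the markers whose groups did not overlap, beside 15.8% of all features, and each had a positive difference. Olfm4 was at 0.57 ± 0.12 (95% interval 0.31 to 0.83, adjusted p = 0.0617), Vcam1 at 0.57 ± 0.17 (adjusted p = 0.212), Cd44 at 0.21 ± 0.056 (adjusted p = 0.135) and Lcn2 at 0.19 ± 0.052 (adjusted p = 0.165). Havcr1 (0.16, 95% interval -0.16 to 0.48), Defb1 (-0.017, -0.29 to 0.25), Spp1 (-0.034, -0.12 to 0.049) and Clu (0.0027, -0.22 to 0.23) had intervals that hold 0. Olfm4 passed with quantile normalization and with only features above the lower quartile (adjusted p = 0.0404 and 0.0384). It also passed without replicate 3 of the 600 culture (adjusted p = 0.0167) and without replicate 1 of the drug-treated 900 challenge (0.70, adjusted p = 0.0408). With a variance trend and robust settings in limma, Olfm4, Lcn2 and Cd44 passed (adjusted p = 0.0116, 0.0145 and 0.0258). The difference of the drug's effect between the challenges passed for no marker in limma, with 0 of 8 called, 2 at an unadjusted p under 0.05 (beside 7.59% of all features) and 0.0459% of all features called (0.0388% above 0, 0.00706% below). An ordinary 2-sample test called 0 of 8 markers for the drug in each challenge, and a fit of the compared groups alone called 0 features of the whole array.

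**Figure D5:**
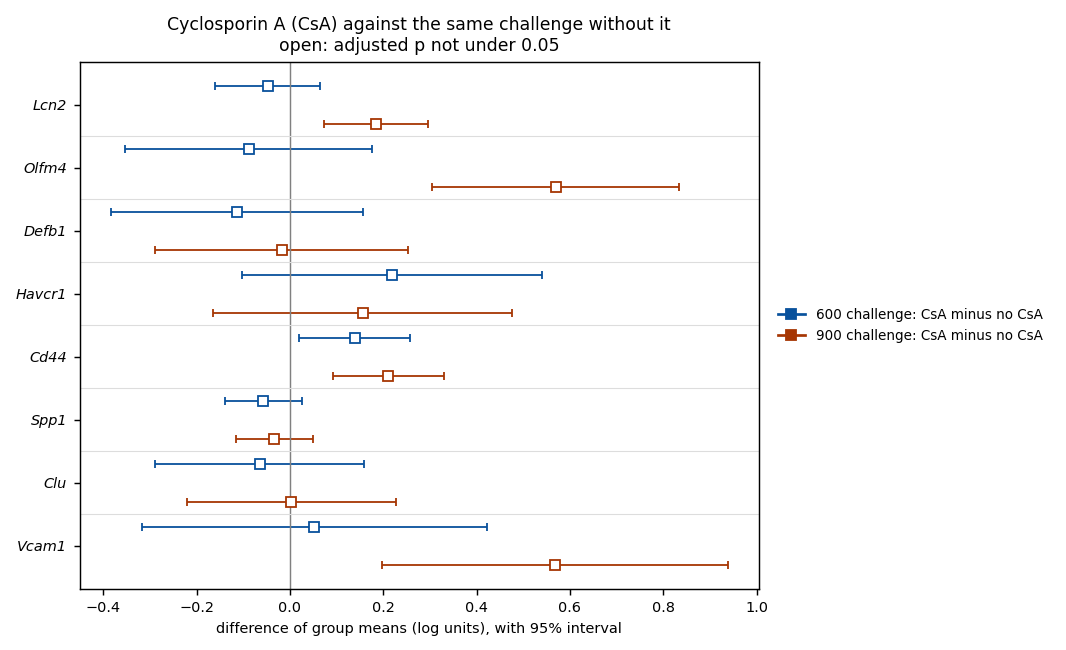
Difference of group means in log units with its 95% interval for the 8 markers, for Cyclosporin A minus no drug in the 600 challenge and in the 900 challenge. In the 900 challenge Olfm4 (0.57), Vcam1 (0.57), Cd44 (0.21) and Lcn2 (0.19) have intervals above 0, and none of the 8 passed after adjustment.

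Partners and processing enzymes of the markers were followed as a list of 29 genes, 22 of them measured. After the 600 challenge 2 rose and 7 fell (median -0.02), and after the 900 challenge 1 rose and 10 fell (median -0.15), where the median of all features was 0.02 and -0.01. Of all features 6.36% rose and 8.07% fell in the first step, and 6.43% rose and 11.0% fell in the second. Leukocyte and fibroblast markers fell in both steps, and their part was not tested. Has2, a synthase of the Cd44 ligand hyaluronan, differed by -1.15 in the first step, and Itga4, a subunit of the integrin that binds Vcam1, by -1.12 in the second. Itgb3, a subunit of an integrin that binds osteopontin, differed by -1.22 in the second step and by -1.83 between the cultures. Mmp7, the matrix protease matrilysin, fell in both steps (-1.78 and -2.26), Mmp3, the protease stromelysin 1, rose in the first (1.49), and the hyaluronidase gene Hyal1 rose in the second (1.28). Between the cultures 4 of the 22 were higher at 600 mosmol/kg and 7 lower (median -0.04), beside 8.33% of all features higher and 8.84% lower. Among the 22 genes Fam20c, the kinase that phosphorylates osteopontin, was higher by 1.61, in the same comparison as the higher Spp1 level. A relation between Fam20c and Spp1 was not tested. Besides Itgb3, larger differences in the other direction were those of Mmp9 and Has2. Mmp9 was at 6.086 in the 300 culture and 3.518 in the 600 culture, and Has2 at 6.286 and 4.655. Mmp9, a gelatinase, was the single member called for Cyclosporin A in the 600 challenge (0.78, adjusted p = 0.00538) and in the 900 challenge (1.14, adjusted p = 0.000159), calls that a fit of the compared groups alone did not make. Of all features 0.409% were called for the drug in the 600 challenge and 0.505% in the 900 challenge.

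Other genes of tubule injury and repair were 39 measured of 40 listed. After the 600 challenge 5 rose and 16 fell (median -0.07), beside 6.36% of all features higher and 8.07% lower. After the 900 challenge 6 rose and 22 fell (median -0.36), beside 6.43% higher and 11.0% lower. In the 600 culture against the 300 culture 5 were higher and 24 lower (median -0.29), beside 8.33% higher and 8.84% lower. The medians of all features were 0.02, -0.01 and 0.002 in the same order. Leukocyte and fibroblast markers fell in these comparisons as well, and their part was not tested. The cytokine gene Il18 differed by -1.61 in the first step, and Cp, which encodes the copper carrier ceruloplasmin, by -0.70 in the first and -0.97 in the second. The growth factor gene Areg rose in the first step (0.75), and the matricellular gene Ccn2 (-1.07) and the transcription factor gene Sox4 (-1.03) fell in the second. Between the cultures the chemokine gene Cxcl1 (-2.59) and the complement gene C3 (-1.34) were lower at 600 mosmol/kg. In the 600 challenge against the 600 culture 16 of the 39 were higher and 9 lower (median 0.12). Of all features 7.69% were higher and 8.74% lower there. Cxcl1 (2.90) and C3 (1.36) were among the higher ones, the direction seen for Lcn2 and Olfm4. With Cyclosporin A in the 900 challenge 2 of the 39 were higher, Cxcl1 (0.94, adjusted p = 6.52e-05) and C3 (0.49, adjusted p = 0.00153), and 1 was lower, Ccn2 (-0.51, adjusted p = 0.00215). Of all features 0.357% were higher and 0.148% lower there. In the 600 challenge the drug lowered 1, the keratin gene Krt19 (-0.28, adjusted p = 0.0182), beside 0.229% of all features higher and 0.180% lower. A fit of the compared groups alone made none of these drug calls.

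Other antimicrobial and innate defence genes of epithelia, 17 measured of 18, were lower in the 600 culture than in the 300 culture in 10 cases. The other 7 did not pass (median -0.67), beside 8.33% of all features higher and 8.84% lower. The fall is in the direction of Lcn2 and opposite to Defb1. In the same comparison 10 of 12 leukocyte markers fell (median -1.14), and their part in the lower levels was not tested. Il1b, the gene of interleukin 1 beta, differed by -3.49, the protease inhibitor gene Slpi by -2.30 and the calprotectin subunit gene S100a8 by -2.09. Il1b and S100a8 were under the lower quartile in the 600 culture and not shown to stand above background there, so their differences are less sure in size. In the 600 challenge against the 600 culture 11 did not pass and 6 were higher, beside 7.69% of all features higher and 8.74% lower. Those 6 included Il1b (2.50, from a level under the lower quartile) and Nos2, the inducible nitric oxide synthase (2.33). After the step from 300 to 600 mosmol/kg 7 fell and 10 did not pass (median -0.33), beside 6.36% of all features higher and 8.07% lower. After the step to 900 mosmol/kg 5 fell and 1 rose (median 0.04), beside 6.43% of all features higher and 11.0% lower. In each step 9 of 12 leukocyte markers fell, and their part was not tested. Lyz2, the lysozyme gene of macrophages, differed by -1.22 in the step to 900 mosmol/kg, and Rnase4, which encodes a secreted ribonuclease, by -0.92. With Cyclosporin A in the 900 challenge 2 of 17 were higher, Il1b (0.68) and the NF-kB regulator gene Nfkbiz (0.25), again not called in a fit of these 2 groups alone. Of all features 0.357% were higher and 0.148% lower in that comparison.

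The genes with the most similar profile to each marker were found as the highest Pearson correlations over the 18 arrays among features with a single symbol. The arrays share 6 groups, so these values mainly compare group means and are given as a description. For Lcn2 they were Rab32 (0.995), C3 (0.993) and Dennd2b (0.989), for Olfm4 Slco3a1 (0.991), Plekha1 (0.98) and Slc1a1 (0.977) and for Defb1 Clca1 (0.936), Moxd1 (0.931) and Clca4 (0.922). For Havcr1 they were Prkci (0.955), Morc2 (0.923) and Mmp3 (0.918), and for Cd44 Far1 (0.992), Rai14 (0.991) and Shisa4 (0.987). For Spp1 they were Ubap1 (0.967), Hao2 (0.934) and Car2 (0.929), for Clu Rnh1 (0.91), Rtp4 (0.895) and Slfn4 (0.88) and for Vcam1 Dpysl2 (0.836), Apobec1 (0.834) and Plk4 (0.824). The correlations were lowest for Vcam1.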

How the data were processed

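Expression was measured on 18 arrays in 6 groups of 3, grouped by the sample titles. Replicate numbers are also those of the titles, and the source names of some samples give another number. The deposited table holds log-scale expression values per feature. Per the labels' protocols, a Qiagen RNeasy kit gave the RNA and Affymetrix whole-transcript kits the labelled cDNA. Summarisation, normalization and the base of the logarithm are not stated in the sources used here. Values were used as deposited, without a filter, background correction or pseudocount.

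Symbols are those of the probe gene table, with 322 features of several symbols and 12711 without one left unnamed. By Entrez identifier 15264 features of 15295 matched the GRCr8 gene table, and 0 symbols changed. Where a listed gene had several features, the brightest was used.

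Group means were fitted on all 18 arrays with limma 3.58.1 in R 4.3.3 (12 residual and 2.03 prior degrees of freedom), with 8 pairwise contrasts and 2 differences of contrasts. P-values were adjusted by Benjamini-Hochberg over all 28328 features at a threshold of 0.05, and intervals are at 95%. Members were described on all their features, and the 3 most similar genes for each leave out placeholder, olfactory, vomeronasal, small RNA and ribosomal symbols and the members themselves. Named genes come from the 4 called genes with the largest differences per list and comparison. Not all of those 4 are named, so a named gene need not be the largest. The members and lists were chosen with earlier results of these data known. Alternatives were other scalings, fits of the compared groups alone, a replicate block, a filter on dim features, other variance settings, array weights, an ordinary 2-sample test and leaving out each array. The script was tested on simulated data.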

Additional observations from a re-analysis of the deposited data

Results flagged for a closer look

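The difference between the step from 600 to 900 mosmol/kg and the step from 300 to 600 mosmol/kg passed the limma test for 4 markers. It was -2.03 log units for Havcr1, -1.83 for Defb1, -0.52 for Spp1 and -0.35 for Cd44. Havcr1 and Spp1 were higher on all 3 arrays of the 600 challenge than on any array of the 300 culture, and lower on all 3 arrays of the 900 challenge than on any array of the 600 culture. In limma the fall of Spp1 was not called with each array centred on its median (adjusted p = 0.0586). That of Havcr1 was not called in an ordinary 2-sample test (adjusted p = 0.109). The move, added time in culture and osmolality cannot be told apart in either step, since no group had a mock step.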

How the results depend on the processing

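Under up to 8 alternative settings and the omission of each of 18 arrays, 2064 member differences were recomputed: 2010 kept their side of the threshold, 26 calls were lost, 28 were gained and 0 called differences changed sign. The lost calls were in Havcr1, Lcn2, Spp1, Clu, Vcam1, Cd44 and Olfm4. The count of markers called for Cyclosporin A in the 900 challenge, 0 of 8, became 1 with quantile normalization, 1 with only features above the lower quartile and 3 with a variance trend and robust settings, and the cause was not tested. An ordinary 2-sample test per feature, which has fewer arrays to estimate the spread, called 3 in place of 6 in the step from 600 to 900 mosmol/kg and 4 in place of 7 between the 600 challenge and the 600 culture. Leaving out 1 array gave 0 to 1 called for the drug in the 900 challenge, 5 to 7 between the 600 challenge and the 600 culture, 6 to 7 in the step from 600 to 900 mosmol/kg, 6 to 7 between the cultures and 4 to 5 for the difference of the steps, and the other counts did not move.

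Arrays with the same number in their titles did not deviate together (45 pairs between groups, correlations -0.129 to 0.108, median 0.00851; 1 above 0.1), so the numbers are not taken to pair samples. With the replicate number as a block, the count of features called went from 4934 to 4820 in the step from 600 to 900 mosmol/kg, and of the members' calls 1 changed: Clu between the cultures passed (0.32, adjusted p = 0.0472). The share of called features that were higher went from 40.9% to 53.5% with arrays centred on their medians in the comparison of the drug-treated 900 challenge with the 600 culture. Of all features, the fit of the compared groups alone called 2860 in place of 4934 in the step to 900 mosmol/kg, 3059 in place of 5040 and 2479 in place of 3982 with the drug, 3071 in place of 4655 between the 600 challenge and the 600 culture, and 0 in place of 116 and 143 for the drug in the 600 and 900 challenges. The ordinary 2-sample test called 2588 in place of 4087 in the step from 300 to 600 mosmol/kg, 2593 in place of 4934 in the step to 900 mosmol/kg, 2313 in place of 3982 and 2782 in place of 5040 with the drug, 2616 in place of 4655 between the 600 challenge and the 600 culture, and 2 and 0 for the drug. The drug counts became 178 and 233 with the filter on dim features and 268 and 385 with a variance trend and robust settings. They fell to between 39 and 67 and between 43 and 76 when 1 array of the compared groups was left out. The 13 features called for the difference of drug effects became 5, 28 and 43 in the fit of the compared groups alone, with the filter and with the variance trend. Levels near the lower quartile limit the size of what can be read. They were those of Olfm4 in the 600 culture and of Vcam1 in both 600 challenge groups and the 900 challenge without the drug. The sources used here give no signal over background.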

Other observations

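Loop of Henle markers (7 measured of 8) were higher in the 600 culture than in the 300 culture in 6 cases, and 1 did not pass (median 0.68). Endothelial markers (11 of 12) were higher in 5 and lower in 2 there (median 0.31), and fell in 7 and rose in 1 in the step from 300 to 600 mosmol/kg (median -0.32). Intercalated cell markers (8 of 8) had 7 members under the lower quartile in every group, with 1 higher and 1 lower between the cultures (median -0.06). Proximal tubule markers (10 of 10) rose in 1 case (Aqp1) in the step from 300 to 600 mosmol/kg and in 2 (Aqp1 and Ggt1) in the step to 900 mosmol/kg, and the others did not pass. Of all features 8.33% were higher and 8.84% lower between the cultures. The shares were 6.36% and 8.07% in the step from 300 to 600 mosmol/kg, and 6.43% and 11.0% in the step to 900 mosmol/kg.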
